A study of Mus musculus with 8 samples.

Results

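Hypertrophic chondrocytes are the enlarged cells in which the growth of cartilage ends and its mineralization begins. In whole intervertebral discs of mice at day 10 after birth (P10), 362 of the 6999 cells that passed the filters (5.17%, exact binomial interval 4.66 to 5.72%) were chosen as such cells by their unique molecular identifiers (UMIs). A chosen cell had at least 2 UMIs of at least 3 of the 5 genes Col10a1, Ihh, Panx3, C1qtnf3 and Epyc. It counted more of these genes than of each of 3 other sets of 5, namely Ucma, Penk, Calml3, Ptx3 and Islr, the set Omd, Lox, Frzb, Efemp1 and Cxcl14, and the tendon set Thbs4, Tnmd, Mfap4, Cpz and Sema3b. It also had at least 5 Acan UMIs, fewer than 5 Krt8 UMIs and fewer than 5 UMIs of the dividing-cell genes Top2a, Mki67 and Birc5 together. Since measured values chose the cells, every level and ratio below is a description, and nothing was tested.

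All mice carried Tagln-CreERt2, a tamoxifen-activated Cre under control of the transgelin gene, and R26tdTomato, a red fluorescent reporter in the Rosa26 locus that Cre switches on. Tamoxifen was given on day 5 after birth. Discs of lumbar levels 1 to 6 and tail levels 5 to 9 were digested whole at P10 or at 8 weeks, so the cells could come from the nucleus, the annulus or the cartilage end plate. No animal without the transgenes was among the samples. The hypertrophic cells of P10 were set against 3 groups of cells of the same genotype. The first was 1688 Ucma chondrocytes of P10 and the second 1408 Omd Lox Frzb chondrocytes of P10, each chosen by the mirrored rule (at least 3 genes of its own set, and more than of the others). The third was 159 of the 6481 kept cells of 8 weeks that met the hypertrophic rule (2.45%, interval 2.09 to 2.86%). The labels list 4 samples an age, but each age is 1 matrix in which they cannot be told apart, so each age is 1 library without replicates, and age and library cannot be told apart. Cells are not replicates either. Intervals are exact 95% intervals that cover counting error only.

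The P10 matrix held 7690 barcodes and 143203550 UMIs, and that of 8 weeks 7597 barcodes and 115097999 UMIs. Both shared 12 barcodes. The rule favours deeply sequenced cells. The 362 cells had a median of 34423.5 UMIs and 4763 genes, against 17983.5 UMIs in Ucma chondrocytes, 23015.5 in Omd Lox Frzb chondrocytes and 28062 in the cells of 8 weeks. Levels are therefore given as UMIs of a gene per 1000000 gene UMIs (CPM), either in a cell or over the summed UMIs of a group. Of the 362 cells, 7 had a doublet score over 0.25.

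In growing cartilage, chondrocytes of the resting zone become dividing columnar cells, leave the cell cycle and enlarge. Prehypertrophic cells secrete Indian hedgehog (Ihh), which acts through the receptor Ptch1 and the transducer Smo on neighbouring cells and maintains PTHrP (Pthlh) in cells far from the hypertrophic zone. PTHrP acts on its receptor Pth1r and delays hypertrophy. Runx2, Runx3, Mef2c and Sp7 promote the hypertrophic state, whose hallmark is type X collagen (Col10a1), while Sox9 maintains the chondrocyte. Cells at the end of this course express enzymes and proteins of mineralization such as Alpl, Ibsp and Spp1.

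Upstream sequences are shown for 4 of the 6 marker genes. Col10a1 and Ihh are the classical genes of hypertrophy, C1qtnf3 is a rule gene that was also found in Ucma chondrocytes, and Matn1 is the marker that the rule did not use. Each sequence is the 250 bases before the RefSeq gene start (GRCm38.p6), written 5′ to 3′ on the strand of the gene. Capitals mark a match to the core of the RUNX motif (TGTGGT or its reverse complement ACCACA) or to the TATA motif (TATAAA or TTTATA).
Col10a1, chr10:34389731-34389980, plus strand: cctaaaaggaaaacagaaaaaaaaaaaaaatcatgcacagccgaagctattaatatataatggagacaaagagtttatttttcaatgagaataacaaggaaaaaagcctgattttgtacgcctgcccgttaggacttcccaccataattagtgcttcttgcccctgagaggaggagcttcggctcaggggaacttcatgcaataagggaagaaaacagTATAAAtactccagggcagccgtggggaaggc
Ihh, chr1:74951673-74951922, minus strand: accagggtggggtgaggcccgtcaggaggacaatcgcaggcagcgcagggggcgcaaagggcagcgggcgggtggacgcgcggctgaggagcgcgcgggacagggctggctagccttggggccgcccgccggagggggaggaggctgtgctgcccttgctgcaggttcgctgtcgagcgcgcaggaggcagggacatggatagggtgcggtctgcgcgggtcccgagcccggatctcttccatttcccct
C1qtnf3, chr15:10952082-10952331, plus strand: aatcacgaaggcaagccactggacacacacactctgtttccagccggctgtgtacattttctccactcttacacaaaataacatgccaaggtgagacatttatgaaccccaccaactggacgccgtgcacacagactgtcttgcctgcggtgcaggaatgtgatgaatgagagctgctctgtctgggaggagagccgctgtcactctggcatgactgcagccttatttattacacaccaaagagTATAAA
Matn1, chr4:130944135-130944384, plus strand: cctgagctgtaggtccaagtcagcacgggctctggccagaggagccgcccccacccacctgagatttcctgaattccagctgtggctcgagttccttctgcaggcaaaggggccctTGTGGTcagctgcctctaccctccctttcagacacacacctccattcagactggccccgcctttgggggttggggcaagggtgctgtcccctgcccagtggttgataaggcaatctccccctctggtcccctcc
In the Col10a1 window TATAAA began 32 bases before the start, and in that of C1qtnf3 6 bases before it. The Matn1 window held TGTGGT 134 bases before the start, and the Ihh window held neither motif. Of all 32851 windows of this length, 14% held the RUNX core and 12.4% the TATA motif on either strand. These matches describe letters only. Panx3 is named without a sequence.

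The label was borne out in part. Col10a1 (chr10:34389981-34397085, mm10) was listed at 0 in 177 of the 362 cells, 31 cells had 1 UMI, 28 had 2 to 9 and 126 had at least 10. Its level in a cell had a median of 23.2 CPM, a 90th percentile of 4764 and a maximum of 37075. The summed level was 2168 CPM in hypertrophic cells, against 4.90 in Ucma chondrocytes and 61.9 in Omd Lox Frzb chondrocytes. Ihh (chr1:74945315-74951672) had a median of 66.6 CPM and a maximum of 2175, with at least 2 UMIs in 199 cells, and a summed level of 216 CPM, against 8.55 and 13.9 in the 2 other groups of P10. Both genes were thus far higher in the chosen cells, as the rule required of many of them, but 177 of the cells qualified without any Col10a1 UMI. At least 2 Ihh UMIs were found in 106 of the 126 cells with at least 10 Col10a1 UMIs and in 66 of the 177 cells with none.

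The other 3 genes of the rule were found in nearly all members. Panx3 (chr9:37659902-37669235), which encodes a channel-forming pannexin of cartilage and bone, had at least 2 UMIs in 347 cells. Its median was 231 CPM and its summed level 286 CPM, against 5.63 in Ucma and 11.5 in Omd Lox Frzb chondrocytes. Epyc (chr10:97644068-97682454), a small leucine-rich proteoglycan of growing cartilage, had at least 2 UMIs in 356 cells and a summed level of 785 CPM, against 465 in Ucma and 229 in Omd Lox Frzb chondrocytes. C1qtnf3 (chr15:10952332-10980150), a secreted protein related to adiponectin, had at least 2 UMIs in 307 cells and a summed level of 295 CPM, against 236 and 15.8 in those groups. Epyc and C1qtnf3 differed far less between hypertrophic cells and Ucma chondrocytes than Panx3 did. The rule that chose both groups used all 3 genes and set these differences in part. Matn1 (chr4:130944385-130955475), the cartilage matrix protein matrilin-1, was outside the rule and had at least 2 UMIs in 293 cells. Its median was 288 CPM and its summed level 500 CPM, against 97.9 in Ucma and 271 in Omd Lox Frzb chondrocytes.

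The rest of the rule left traces. Of 635 kept cells with at least 3 of the 5 genes, 96 reached the limit on dividing-cell genes, 9 that on Krt8, and 168 counted at least as many genes of another set, in 127 cells that of Ucma. Members still held Ucma, at 286 CPM against 3838 in Ucma chondrocytes, and 268 of them had at least 2 Ucma UMIs. The 166 members with exactly 3 of the 5 genes lay just inside the rule and 78 cells with 2 lay just outside. Col10a1 was at 322 CPM just inside and 94.2 just outside, Panx3 at 196 and 42.1, and C1qtnf3 at 411 and 430, values that the rule itself set in part. Outside the rule, Pth1r was at 518 and 194 CPM and Alpl at 154 and 32.2. The cells inside also had more UMIs, with medians of 28920.5 and 17681.

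**Figure D1:**
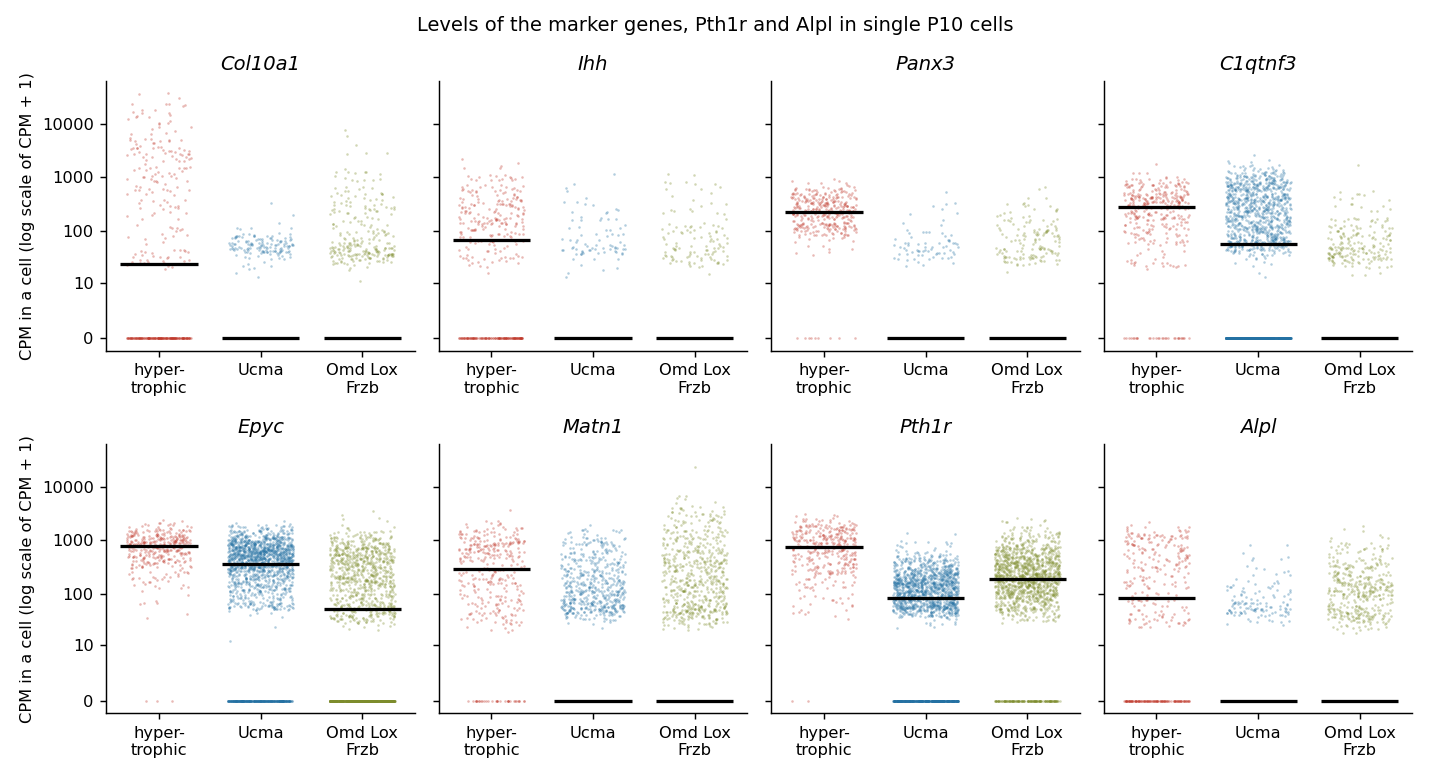
Levels of the 6 marker genes, Pth1r and Alpl in single P10 cells (y axis, CPM on a log scale of CPM + 1) in hypertrophic cells, Ucma chondrocytes and Omd Lox Frzb chondrocytes. Each point is a cell. Panx3 and Epyc are well above 0 in nearly all hypertrophic cells, while Col10a1 is 0 in 177 of the 362 cells and reaches 37075 CPM in another.

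Free RNA in droplets was gauged in 110 cells of P10 marked by neutrophil genes, which should lack cartilage transcripts. With every cell thinned to 5000 UMIs, a Col10a1 UMI was found in 39.1% of 361 hypertrophic cells (interval 34.0 to 44.3%), against 2.14% of 1680 Ucma chondrocytes. It was found in 1 of the 38 neutrophil-marked cells that were deep enough. For Panx3 the shares were 68.4% of hypertrophic cells and 1.49% of Ucma chondrocytes, for Ihh 39.1% and 1.85%, and for Matn1 64.3% and 18.1%. Without thinning, the Col10a1 shares were 51.1%, 8.59% and, in all 110 neutrophil-marked cells (median 3742.5 UMIs), 3.64%. For Col10a1, Panx3 and Ihh the rule set much of these differences, so they say nothing of free RNA. For Matn1, outside the rule, the share in neutrophil-marked cells was 7.89% (3 of 38). No Ucma chondrocyte and no neutrophil-marked cell had 10 Col10a1 UMIs.

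Against Ucma chondrocytes of the same library, the hypertrophic cells had much more of the phosphate-handling enzymes Alpl and Ppa1 and of the receptor Pth1r, and much less Pthlh, Igf1, Sfrp5 and Apoe. Of 10303 genes that reached 100 UMIs when both sums were added, 811 (7.87%) were at least 2-fold higher in hypertrophic cells and 1013 (9.83%) at least 2-fold lower. The median gene had a log2 ratio of 0.06. A gene with at least a 2-fold difference is called higher or lower in what follows. Counts of a list near the shares of 7.87% and 9.83% mark nothing particular to it.

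Ppa1, the cytosolic inorganic pyrophosphatase, was the most abundant of the genes named for a high ratio. It had a 10th percentile of 1028 CPM, a median of 4626 and a maximum of 12362 in single hypertrophic cells and was found in 359 of 362. Summed levels were 5043 CPM in hypertrophic cells and 271 in Ucma chondrocytes, a log2 ratio of 4.22 (4.19 to 4.25). Unlike Col10a1, Ppa1 was therefore high in nearly every member. Alpl, the tissue-nonspecific alkaline phosphatase that cleaves extracellular pyrophosphate, had 385 CPM in hypertrophic cells and 9.93 in Ucma chondrocytes (log2 ratio 5.28, 5.11 to 5.45). Its median in single hypertrophic cells was 82.8 CPM and its 90th percentile 1136, so it was uneven among them. Fxyd2 and Fxyd3, which encode small regulators of the sodium pump, had 880 and 245 CPM in hypertrophic cells, against 41.5 and 9.12 in Ucma chondrocytes.

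The other genes named by the size of their ratio were less abundant. Irx5, a homeobox factor, had 52.4 CPM in hypertrophic cells and 0.66 in Ucma chondrocytes (log2 ratio 6.31, 5.69 to 7.01) and was found in 117 members. Grb14, an adaptor that binds the insulin receptor, had 80.1 and 1.98 CPM (5.34, 4.97 to 5.73), and Chrdl1, a BMP antagonist, 75.2 and 3.93 (4.26, 3.99 to 4.54). Ddit4l, an inhibitor of mTOR signalling, had 151 CPM in hypertrophic cells against 5.78 in Ucma chondrocytes. These 4 were found in 117 to 268 of the 362 members. Bglap (osteocalcin) had 22.3 CPM in hypertrophic cells and 0.82 in Ucma chondrocytes, and AW112010 36.5 and 1.48. Tff1 (10.5 CPM against 0.063) and Hp (19.9 against 0.47) rested on few cells, since 5 cells held 96.2% of the Tff1 UMIs and 80.1% of those of Hp.

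Among genes lower in hypertrophic cells, Pthlh stood at the head, with 4 UMIs in 4 members. Its levels were 0.32 CPM in hypertrophic cells and 36.6 in Ucma chondrocytes (log2 ratio -6.85, -8.73 to -5.49). Sfrp5, a secreted Wnt inhibitor of the resting zone, had 4.28 CPM in hypertrophic cells and 120 in Ucma chondrocytes (-4.81). Igf1 had 4.59 and 129 CPM (-4.82), the lipid carrier Apoe 26.0 and 618 (-4.57), the matrix protein Srpx2 5.39 and 133 (-4.63), and the stromelysin Mmp3 3.96 and 95.5 (-4.59). Each of these 4 was found in 19 to 112 of the 362 members, so the lower sums went with absence from most cells. Cntn1, Msmp and Adgra1 were each at under 1 CPM in hypertrophic cells and at 15.9 to 26.1 CPM in Ucma chondrocytes.

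**Figure D2:**
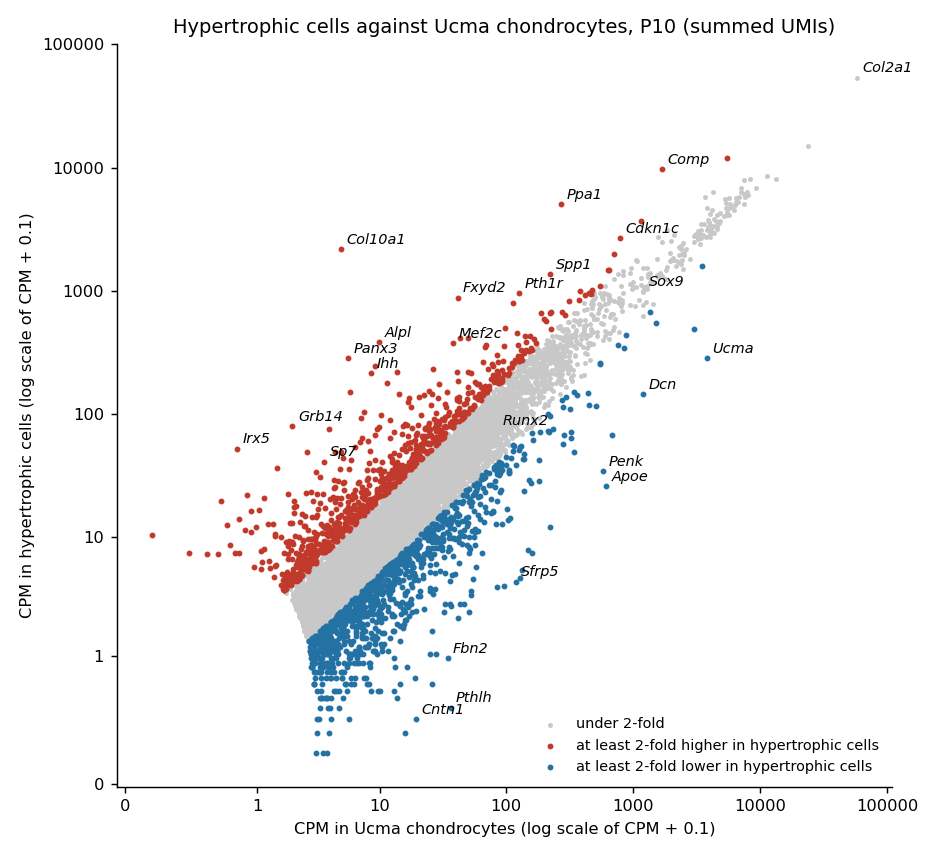
Summed levels of 10303 genes in hypertrophic cells (y axis) and Ucma chondrocytes (x axis) of P10, in CPM on log scales of CPM + 0.1. Each point is a gene. The 811 genes at least 2-fold higher and the 1013 at least 2-fold lower in hypertrophic cells are coloured, with Alpl and Ppa1 far above the diagonal and Pthlh far below it.

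Transcription factors and receptors that govern hypertrophy were higher in part. Of 17 measured members of a list of 20, 7 were higher in hypertrophic cells than in Ucma chondrocytes and 1 was lower. Over all genes 7.87% were higher and 9.83% lower. The list had a median log2 ratio of 0.21. Mef2c had a median of 306 CPM in single hypertrophic cells and summed levels of 375 CPM, against 38.1 in Ucma chondrocytes (log2 ratio 3.30, 3.21 to 3.39). Sp7 (osterix) had 41.1 CPM in hypertrophic cells and 3.62 in Ucma chondrocytes (3.51, 3.21 to 3.81), and Foxa2 72.3 and 13.1 (2.47). Pth1r was found in 360 members, with a median of 741 CPM, and its sums were 954 CPM in hypertrophic cells and 127 in Ucma chondrocytes (2.91, 2.86 to 2.96). Runx3 had 78.0 and 38.4 CPM (1.02), Foxa3 225 and 84.6 (1.41) and Dlx5 13.1 and 1.89 (2.80). Runx2, in contrast, had 74.4 CPM in hypertrophic cells and 85.6 in Ucma chondrocytes, a log2 ratio of -0.20 (-0.31 to -0.09), and Runx1 was lower (55.2 and 116). Sox9 stood at 992 CPM in hypertrophic cells and 1210 in Ucma chondrocytes, and all 362 members had Sox9 UMIs. Of the regulators, then, Mef2c, Sp7 and Pth1r differed most, while Runx2 and Sox9 differed by less than 2-fold.

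Among the 19 lists, that of mineralization and terminal hypertrophy had the highest median ratio. Of 28 measured members of 32, 15 were higher in hypertrophic cells than in Ucma chondrocytes and 3 were lower, with a median of 1.33. Shares over all genes were 7.87% higher and 9.83% lower. Spp1 (osteopontin) had 1372 CPM in hypertrophic cells and 223 in Ucma chondrocytes (log2 ratio 2.62, 2.58 to 2.66), but its median in single hypertrophic cells was 34.7 CPM and its maximum 49420. Smpd3, a sphingomyelinase of mineralizing cartilage and bone, had 412 and 43.6 CPM (3.24, 3.15 to 3.32), with a median of 331 in single cells. The citrate transporter Slc13a5 had 105 and 7.48 CPM (3.81), the lysyl oxidase Loxl4 153 and 24.5 (2.64), the transglutaminase Tgm2 358 and 96.1 (1.90), and Phex, an endopeptidase of phosphate balance, 12.6 and 0.53 (4.56). Ibsp (bone sialoprotein) had 115 CPM in hypertrophic cells and 17.9 in Ucma chondrocytes, yet it was found in 35 members, and 1 cell held 39.0% of its UMIs. The collagenase Mmp13 was lower, with 8.24 CPM in hypertrophic cells and 20.5 in Ucma chondrocytes, and was found in 20 members. Vegfa had 71.5 and 83.8 CPM. Several genes of mineral metabolism were thus higher than in Ucma chondrocytes, while Mmp13 and Vegfa, markers of the last hypertrophic stage next to bone, were not.

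Of 19 measured hedgehog and PTHrP genes of 20, 4 were higher in hypertrophic cells than in Ucma chondrocytes and 9 lower. The median was -0.63, and over all genes 7.87% were higher and 9.83% lower. The 4 higher members of the list were Scube1, Scube3, Disp1 and Kif7. Scube1 (49.7 CPM in hypertrophic cells and 4.90 in Ucma chondrocytes) and Disp1 (22.5 and 3.14) belong to families that act in the release of lipid-bearing hedgehog proteins. Kif7, a kinesin that acts on Gli factors in receiving cells, had 4.75 and 2.23 CPM. Scube2, of the Scube family, was lower, with 2.38 and 50.9 CPM. The coreceptors Boc (3.72 and 27.5) and Gas1 (2.38 and 18.2), the transducer Smo (26.5 and 55.5), the decoy receptor Hhip (9.82 and 35.7) and the target Gli1 (5.94 and 16.2) were lower as well. Ptch1, receptor and target, had 45.1 CPM in hypertrophic cells and 57.2 in Ucma chondrocytes.

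Growth factor lists had medians below that of all genes, of which 7.87% were higher and 9.83% lower. Of 27 measured FGF and IGF genes, 2 were higher in hypertrophic cells than in Ucma chondrocytes and 15 lower (median -1.05). The 2 higher genes were Fgfr3, the receptor that restrains growth plate division (245 and 79.5 CPM), and Prkg2, a cGMP-dependent kinase of growth cartilage (147 and 26.0). Fgfr1 (27.6 and 156), Fgfr2 (9.98 and 51.1) and Igfbp7 (67.5 and 680) were lower. Of 35 BMP and TGF-beta genes, 8 were higher and 14 lower (median -0.58). The ligands Bmp6 (54.1 and 6.35 CPM) and Bmp2 (262 and 111) and the antagonist Nog (119 and 25.5) were higher, whereas the BMP target genes Id1 (71.6 and 326) and Id3 (151 and 345) were lower. Among the 37 hypertrophic cells with under 10 UMIs of the markers of every other cell type, the log2 ratio of Id3 was 0.12. Of 24 Wnt genes, 5 were higher and 7 lower (median -0.54). Wnt4 had 236 CPM in hypertrophic cells and 105 in Ucma chondrocytes, Wnt5b 81 and 20.3, and the inhibitor Wif1 12.8 and 93.5. Receptors, ligands and targets of 1 pathway thus differed in direction.

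Cartilage matrix genes showed no common direction. Of 34 measured members of a list of 36, 6 were higher in hypertrophic cells than in Ucma chondrocytes and 6 lower (median -0.01). The shares over all genes were 7.87% higher and 9.83% lower. Comp, a pentameric glycoprotein that binds collagen, was in every member with a median of 7991 CPM, and its sums were 9695 CPM in hypertrophic cells and 1690 in Ucma chondrocytes (2.52, 2.51 to 2.53). The link protein Hapln1 had 3660 and 1155 CPM (1.66), Chad 831 and 313 (1.41) and the sulfate transporter Slc26a2 189 and 88.5. Decorin (Dcn), a proteoglycan of fibrous tissue, had 145 CPM in hypertrophic cells and 1208 in Ucma chondrocytes (-3.06), and biglycan (Bgn) 1590 and 3523 (-1.15). Col2a1 stood at 53516 CPM in hypertrophic cells and 58196 in Ucma chondrocytes. A high type II collagen level was therefore common to both groups, whereas Comp and Dcn differed in opposite directions.

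Of 31 genes that fold and secrete collagen, 3 were higher in hypertrophic cells than in Ucma chondrocytes and 1 lower, a share of higher genes near the 7.87% over all genes. Their median log2 ratio was 0.50, and 23 had a ratio above 1. P3h2, a prolyl 3-hydroxylase, had 232 CPM in hypertrophic cells and 26.3 in Ucma chondrocytes (3.14), P4ha2, a subunit of prolyl 4-hydroxylase, 431 and 153 (1.49), and the collagen chaperone Serpinh1 1798 and 1065 (0.75). For the unfolded protein response, 4 of 24 were higher and 0 lower (median 0.48), among them Manf with 375 and 172 CPM. For glycolysis and hypoxia, 5 of 31 were higher and 3 lower (median 0.50), with Ldha at 1468 and 645 CPM and Slc16a3 at 149 and 49.9. Among 26 cell cycle genes outside the rule, 4 were higher and 3 lower (median -0.24). The inhibitor Cdkn1c (p57) had a median of 1774 CPM in single hypertrophic cells and sums of 2690 CPM, against 789 in Ucma chondrocytes (1.77), while Ccnd1, a cyclin of dividing cells, had 50.2 and 113 CPM.

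The counts that follow stand beside shares of 7.87% higher and 9.83% lower over all genes. Of 22 measured genes of the resting and columnar zones, 2 were higher in hypertrophic cells than in Ucma chondrocytes and 11 lower (median -1.24). Of 26 fibrous matrix genes, 1 was higher and 8 lower (median -0.64). Of 24 proteases and inhibitors, 5 were higher and 12 lower (median -0.99), with Adamts1 at 217 CPM in hypertrophic cells and 52.7 in Ucma chondrocytes and Mmp2 at 118 and 451. Of 15 genes that act on vessels, nerves or bone cells, 2 were higher and 8 lower (median -1.03). Of 19 chondrogenic regulators, 1 was higher and 6 lower (median -0.47), with Nfatc2 at 114 and 282 CPM. Ion, water and gap junction genes (4 of 23 higher, 5 lower), immediate early genes (2 of 24 higher, 3 lower) and imprinted growth genes (3 of 19 higher, 4 lower) had medians between -0.29 and 0.05. The amino acid transporter Slc38a4, an imprinted gene, had 98.8 CPM in hypertrophic cells and 10.3 in Ucma chondrocytes.

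**Figure D3:**
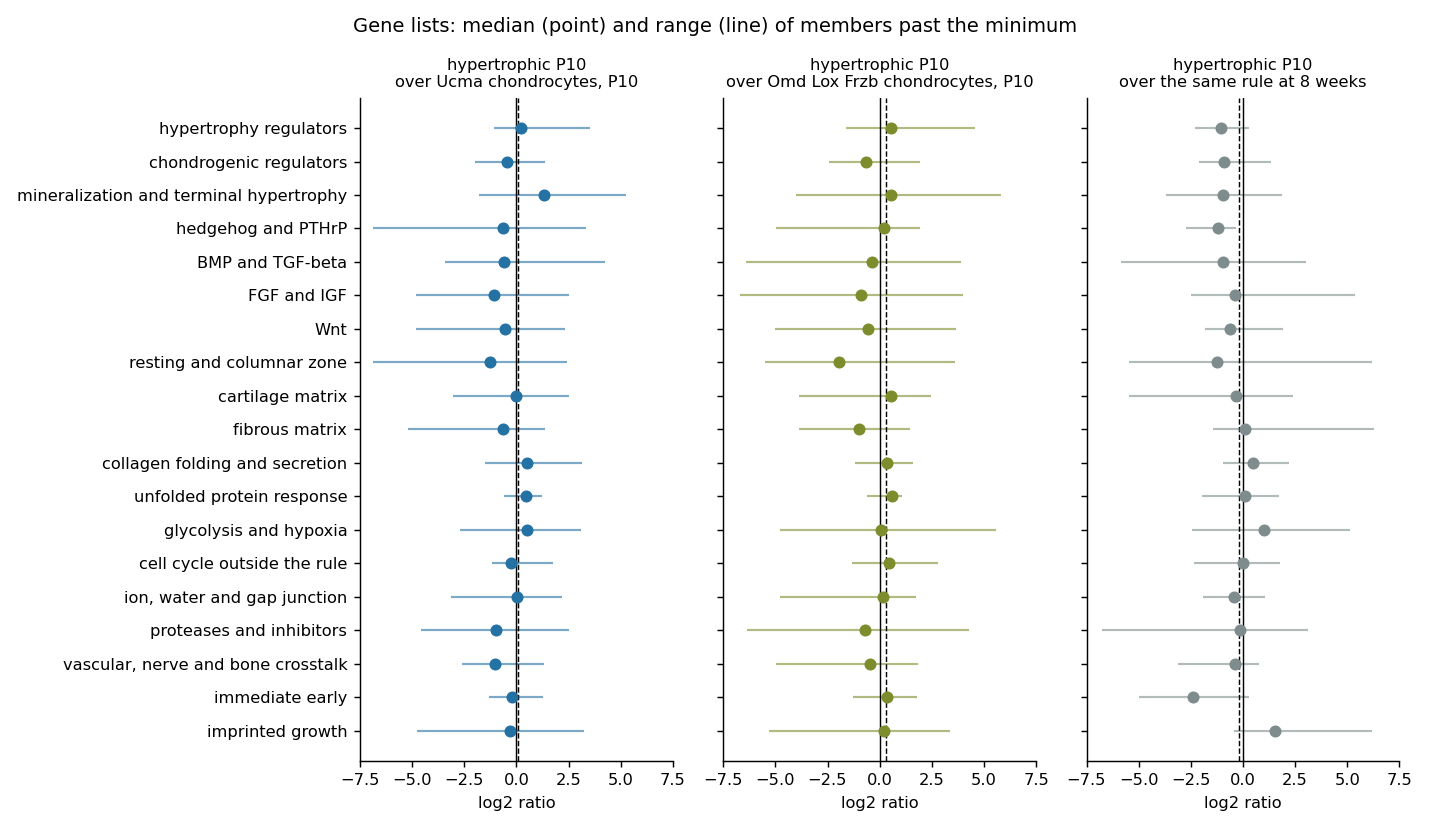
Log2 ratios of 19 gene lists in hypertrophic P10 cells over Ucma chondrocytes, over Omd Lox Frzb chondrocytes and over cells of the same rule at 8 weeks. Points are medians and lines the range of members past the minimum of 100 UMIs; the dashed line is the median of all genes. The mineralization list has medians of 1.33, 0.53 and -0.94.

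Markers of other cell types were of uneven level in the hypertrophic cells. The 8 macrophage markers summed to 3.96 CPM in hypertrophic cells and 5.38 in Ucma chondrocytes, with 4 of the 8 at 0 in hypertrophic cells. The 8 nucleus pulposus markers summed to 14.9 and 19.7 CPM, with 2 at 0, the osteoclast markers to 13.1 and 16 CPM, the endothelial markers to 17.6 and 40.5, the erythroid markers to 16.4 and 24.7, and the mural markers to 8.79 and 43.4. Schwann cell markers summed to 515 CPM in hypertrophic cells and 528 in Ucma chondrocytes, with at least 10 UMIs in 84.3% and 46.1% of cells. Of these, S100b, which chondrocytes also express, had 207 and 337 CPM. Ncmap, another of them, had 280, 300 and 301 CPM in 3 classes of the 362 members by Col10a1 (described below). With S100b it thus made up most of the Schwann marker sum in hypertrophic cells. No Ncmap level in Ucma chondrocytes is set beside it. Of 4 Schwann markers measured against Ucma chondrocytes, 1 had a ratio above 1 and 3 below it (log2 ratios -0.70 to 0.75). Connective fibroblast markers summed to 312 CPM in hypertrophic cells and 235 in Ucma chondrocytes, with at least 10 UMIs in 46.7% and 6.81% of cells, and Gsn (gelsolin) made up 246 and 166 CPM of them. Tendon fibroblast markers summed to 218 and 471 CPM, with at least 10 UMIs in 27.1% and 33.5% of cells. The hypertrophic cells were deeper, which by itself raises such shares. The 8 osteoblast markers summed to 473 CPM in hypertrophic cells, 769 in Ucma and 2206 in Omd Lox Frzb chondrocytes. None was at 0, and at least 10 UMIs of them were found in 25.4% of hypertrophic cells, 4.86% of Ucma and 19.6% of Omd Lox Frzb chondrocytes. Most of that sum was Col1a1 at 363 CPM, of which 5 cells held 71.2%. Of 7 osteoblast markers measured against Ucma chondrocytes, 6 were higher (Bglap, Bglap2, Dmp1, Sp7, Ifitm5 and Phex) and Col1a1 was lower, with a median log2 ratio of 3.51. Dmp1 had 5.94 CPM in hypertrophic cells and 1.45 in Ucma chondrocytes, and Ifitm5 6.57 and 1.82. Sp7, Bglap, Bglap2 and Phex also serve above as genes of hypertrophy or mineralization. The part of osteoblast RNA in these values was not tested. Neutrophil markers summed to 116 CPM in hypertrophic cells and 72.6 in Ucma chondrocytes, but 1 cell held 96.8% of the S100a9 UMIs and 99.3% of those of Ngp. Cells with at least 10 UMIs of another type's markers were also left out, without counting the markers that Ucma chondrocytes express at 10 CPM or more (an alternative chosen after the data were seen). That left 323 of the 362 cells, and 763 genes were higher and 941 lower than in Ucma chondrocytes.

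Against Omd Lox Frzb chondrocytes, Fxyd2, Slc13a5 and Ppa1 were much higher in hypertrophic cells, and Srpx2 and Apoe much lower. Of 10144 genes, 1214 (12%) were higher in hypertrophic cells and 890 (8.77%) lower, with the median gene at a log2 ratio of 0.28. Relative to the median gene the counts were 644 higher and 1227 lower. The 6 genes with the highest ratios were Fxyd2 (880 CPM in hypertrophic cells and 11.5 in Omd Lox Frzb chondrocytes), Apof (29.5 and 0.438), Prss50 (180 and 3.16), Slc13a5 (105 and 1.84), Car12 (59.8 and 1.26) and Xlr3c (14.7 and 0.292). Ppa1, chosen here for its ratio in the other contrast, had 5043 and 192 CPM (4.72, 4.68 to 4.75). The 6 lowest were Srpx2 (5.39 and 370 CPM), Apoe (26.0 and 1161), Col8a1 (0.634 and 61.7), Pcsk5 (0.871 and 71.8), Grem1 (0.554 and 47.4) and Spock1 (0.634 and 45.0). Srpx2 and Apoe were thus among the lowest against both groups, and Fxyd2 among the highest.

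The lists were also set against this second group, where 12% of all genes were higher and 8.77% lower, with the median gene at 0.28. Both contrasts share the hypertrophic cells, so their ratios are given side by side and not compared. Of 29 mineralization genes, 10 were higher, Mmp13 among them, and 6 lower (median 0.53). Alpl had 385 CPM in hypertrophic cells and 59.9 in Omd Lox Frzb chondrocytes, but Ibsp had 115 and 354 and the matrix protein Sparc 14857 and 45081. In cells with under 10 UMIs of the markers of every other type, 37 of them hypertrophic, the Ibsp ratio turned to 1.58. Of 16 regulators, 6 were higher and 2 lower (median 0.56), with Runx3 at 78.0 and 8.15 CPM and Runx2 at 74.4 and 49.6. Col2a1 was lower by less than 2-fold, with 53516 CPM in hypertrophic cells and 101484 in Omd Lox Frzb chondrocytes. Of 34 cartilage matrix genes, 8 were higher and 9 lower (median 0.53), among them Prelp (570 and 103) and Chad (831 and 1876). Of 22 resting and columnar zone genes, 3 were higher and 13 lower (median -1.97). Of 19 hedgehog and PTHrP genes, 4 were higher and 5 lower, and Ptch1, at 45.1 and 16.8 CPM, was one of the higher. The median of this list was 0.20, below the median gene at 0.28. In 47 Omd Lox Frzb chondrocytes there were at least 10 Col10a1 UMIs, out of 198 kept P10 cells with that many, of which 126 were members.

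To describe variation among the members, they were divided into a low (121 cells), a middle (121) and a high class (120) of nearly equal size by its CPM. Col10a1 was 0 in all of the low class, 0 to 374 CPM in the middle and 378 to 37075 in the high class. The line between low and middle fell among cells at 0 and followed their order in the matrix. Median depths were 30337, 32519 and 41419.5 UMIs from low to high. Of 6041 genes, 328 (5.43%) were called higher in the high than in the low class and 155 (2.57%) lower, with the median gene at 0.04.

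Alpl and several other mineralization genes were higher where Col10a1 was high. Alpl had 97.5, 184 and 770 CPM from the low to the high class (log2 ratio of high over low 2.98, 2.83 to 3.14), Spp1 671, 972 and 2233, Slc13a5 25, 61.6 and 201, and Phex 4.31, 5.22 and 25. Of 24 members of the mineralization list, 8 were higher in the high class and 1 lower, with a median of 0.75. Among all genes 5.43% were higher and 2.57% lower. Ibsp had 0.54, 79.0 and 232 CPM, but 5 cells held 88.4% of its UMIs. Irx5 had 2.42, 12.7 and 123 CPM (5.67, 4.73 to 6.80), Ddit4l 9.15, 65.3 and 330, and Fxyd3 61.4, 101 and 504. The high class therefore held most of the transcripts of several genes that set the whole group apart from Ucma chondrocytes.

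Signalling genes varied in both directions. Pth1r had 544, 764 and 1423 CPM from the low to the high class (1.39), Ihh 127, 159 and 330 (1.38), Bmp2 103, 160 and 468 (2.19), and Bmp6 13.5, 21.6 and 112 (3.05). The BMP targets Id1 (109, 71.0 and 43.8) and Id3 (203, 212 and 60.4) and the hedgehog target Ptch1 (67.3, 55.1 and 19.9) ran the other way. The cell cycle inhibitor Cdkn1c had 1312, 2000 and 4305 CPM (1.71) and Cdkn1a 233, 316 and 548 (1.24), while Ccnd1 had 68.4, 62.8 and 26.0 (-1.40). The metalloproteinase inhibitor Timp3 had 183, 264 and 1111 CPM (2.61), and fibronectin (Fn1) 1885, 2411 and 4612 (1.29).

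Other features did not follow Col10a1. Sp7 had 39.6, 43.5 and 40.3 CPM from the low to the high class (log2 ratio 0.03, -0.29 to 0.34), Runx2 77.0, 67.8 and 78.0 (0.02), Runx3 75.9, 79.7 and 78.2 (0.04) and Ppa1 4879, 5174 and 5060 (0.05). Mef2c was higher by just under 2-fold, with 253, 337 and 498 CPM (0.97). Sox9 had 1205, 1168 and 685 CPM (-0.82). Among rule genes, whose levels the choice of cells ties together because a member without Col10a1 needs 3 of the other 4, C1qtnf3 (401, 385 and 140 CPM), Epyc (898, 925 and 584) and Ucma (408, 330 and 157) were lower where Col10a1 was high, and Panx3 was higher by less than 2-fold (213, 260 and 362). None of 28 glycolysis genes and none of 21 genes of the unfolded protein response reached a 2-fold difference. Only 8% of all 6041 genes did so in either direction, so nothing particular to these 2 lists is read from that. Of 23 immediate early genes 0 were higher and 4 lower (median -0.44), among them Jun with 2219, 1599 and 1003 CPM. Ppa1, Sp7, Runx2 and Runx3 were thus as high in members without Col10a1 as in those with the most.

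Across the 362 cells, Spearman correlations of CPM with Col10a1 were 0.70 for Alpl, 0.71 for Irx5, 0.62 for Pth1r, 0.61 for Cdkn1c, 0.56 for Comp, 0.45 for Ihh and 0.05 for Sp7. They were -0.53 for C1qtnf3 and -0.37 for Epyc, which had a correlation of 0.58 with C1qtnf3. Every member holds at least 3 of the 5 rule genes, which by itself sets them off against each other, so nothing is read from correlations among those genes. After thinning to 5000 UMIs the values for Alpl, Pth1r, Cdkn1c and C1qtnf3 were 0.63, 0.52, 0.58 and -0.41. Those for Irx5, Comp, Ihh, Sp7 and Epyc were 0.50, 0.53, 0.31, -0.01 and -0.28. These are descriptions over cells of 1 library, which also share their depth: the correlation of Pth1r CPM with total UMIs was 0.52.

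**Figure D4:**
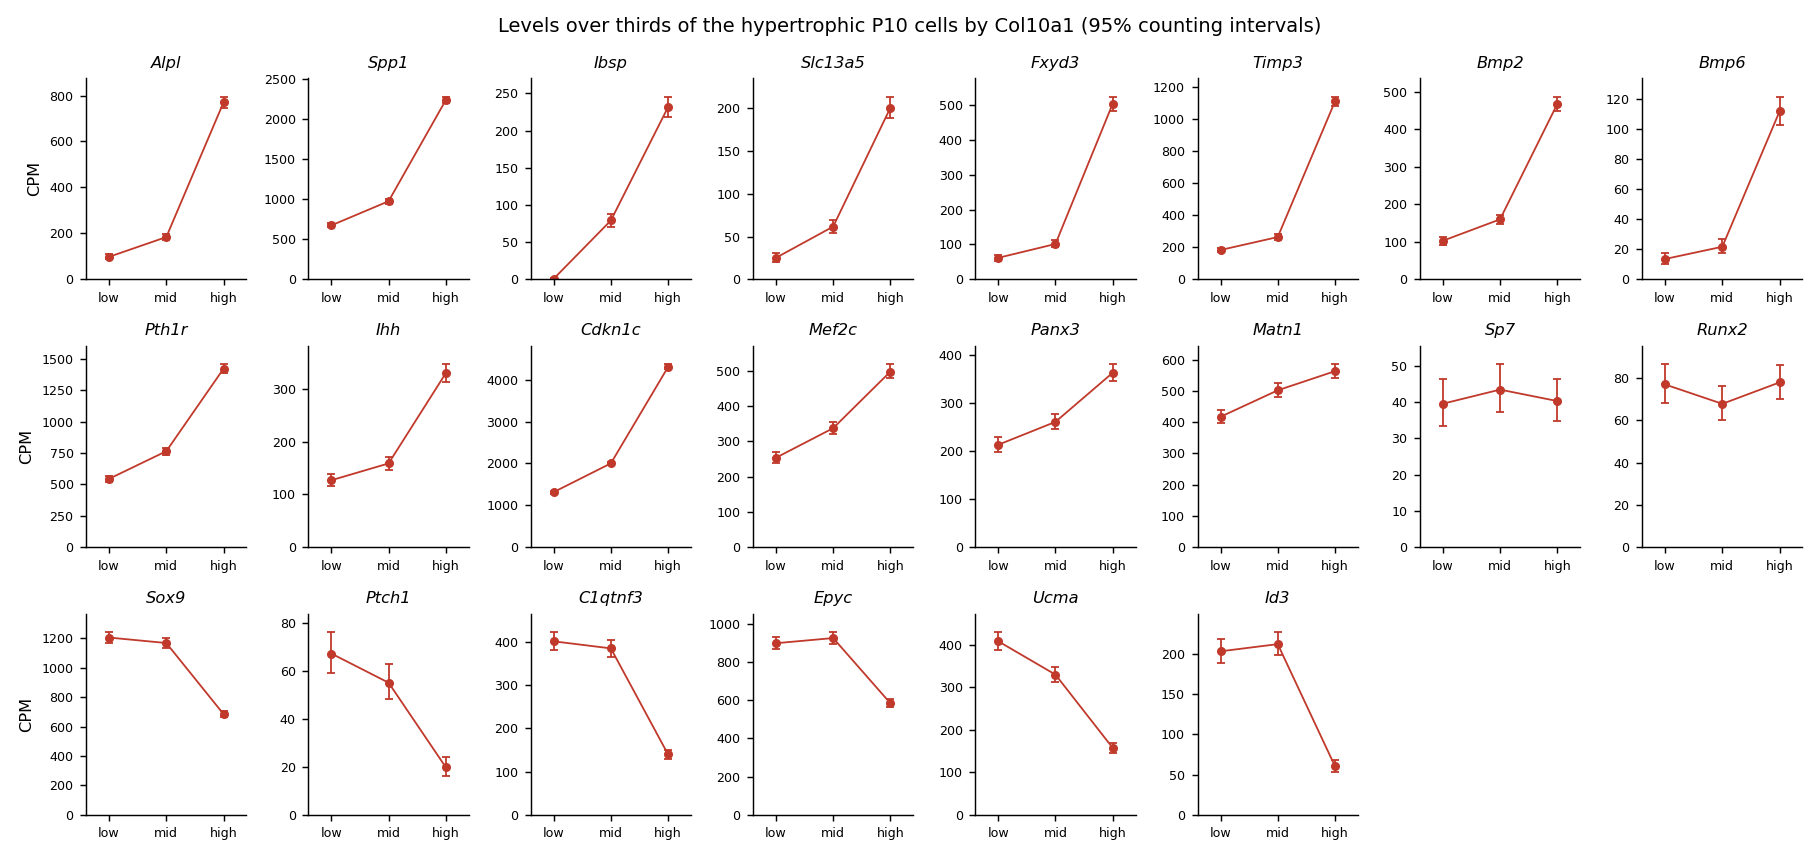
Summed levels (y axes, CPM) of 22 genes in the low, middle and high classes of the 362 hypertrophic P10 cells by Col10a1, with 95% counting intervals. Alpl has 97.5, 184 and 770 CPM, Sp7 39.6, 43.5 and 40.3, and C1qtnf3 401, 385 and 140.

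Set against the 159 cells of 8 weeks that met the same rule, the P10 cells had less Col10a1, Ihh, Alpl and Pth1r and more C1qtnf3, Matn1 and Epyc. Of 8249 genes, 622 (7.54%) were higher at P10 and 1379 (16.7%) lower, and the median gene had a log2 ratio of -0.21. Relative to the median gene, 949 were higher and 955 lower. Age and library cannot be told apart in this contrast.

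The rule genes themselves were spread differently at the 2 ages. Col10a1 had 2168 CPM in hypertrophic cells of P10 and 9781 in those of 8 weeks. At least 2 UMIs of it were present in 154 of 362 cells at P10 and in 86 of 159 at 8 weeks. C1qtnf3 had 295 CPM at P10 and 13.7 at 8 weeks and reached 2 UMIs in 307 of 362 cells and in 20 of 159. Epyc had 785 and 187 CPM, Ihh 216 and 535, and Panx3 286 and 538. Matn1, outside the rule, had 500 and 95.5 CPM (log2 ratio 2.39, 2.25 to 2.53). The same rule thus picked cells with another mix of its genes at each age. For that reason the contrast was repeated with only the 154 and 86 cells that had at least 2 Col10a1 UMIs, a choice made after the data were seen. The mix stayed unlike in these cells. Col10a1 had 4434 CPM at P10 and 18252 at 8 weeks (log2 ratio -2.04), C1qtnf3 181 and 2.10, and Epyc 630 and 132. The repeat therefore does not set cells of like Col10a1 level against each other.

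Sp7, Runx2, Pth1r, Alpl and Ibsp were lower at P10. Of 16 regulators, 0 were called higher and 10 lower (median -1.07), against 16.7% lower among all genes. Sp7 had 41.1 CPM at P10 and 103 at 8 weeks (-1.33), Runx2 74.4 and 180 (-1.28), Pth1r 954 and 2016 (-1.08) and Mef2c 375 and 709 (-0.92). Among cells with Col10a1 these log2 ratios were -1.26, -1.47, -0.65 and -0.84. Of 27 mineralization genes, 1 was higher and 13 lower (median -0.94). Alpl had 385 and 1093 CPM (-1.50, and -1.11 among cells with Col10a1), and Ibsp 115 and 1494 (-3.70 and -3.52). Spp1 had 1372 and 1031 CPM (0.41). Of 12 hedgehog and PTHrP genes 0 were higher and 8 lower (median -1.21). Fxyd2 had 880 and 2256 CPM, while Ppa1 had 5043 and 3440.

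Many imprinted genes and several of glycolysis and collagen folding were higher at P10, where 7.54% of all genes were. Of 18 imprinted genes, 11 were higher and 0 lower (median 1.54). H19, a noncoding RNA of fetal and early postnatal tissue, had 1946 CPM at P10 and 148 at 8 weeks (3.72), and 1753 and 14.3 among cells with Col10a1 (6.94, 6.45 to 7.47). Mest had 209 CPM at P10 and 3.60 at 8 weeks, Dlk1 49.7 and 0.68, Igf2 37.8 and 0.90, and Cdkn1c 2690 and 788. Of 29 glycolysis and hypoxia genes, 13 were higher and 3 lower (median 0.98). Pgk1 had 960 and 117 CPM (3.03, and 3.00 among cells with Col10a1), Gapdh 2736 and 727 (1.91 and 1.98), Eno1 912 and 176, and the lactate transporter Slc16a3 149 and 4.28. Of 31 genes of collagen folding, 7 were higher and 0 lower (median 0.49), with Serpinh1 at 1798 and 742 CPM. Col2a1 hardly differed, at 53516 and 54476 CPM.

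By the size of the ratio, the genes highest at P10 were Mfap2 (69.3 CPM at P10 and 0.90 at 8 weeks), Mest, Dlk1, Slc16a3, Gpc3 (78.5 and 2.70), Igf2, Fabp4 (33.3 and 0.90), and the neutrophil genes S100a9, Ngp and Lcn2, which came mostly from 1 cell. The lowest included Cytl1, a secreted protein of cartilage (19.3 CPM at P10 and 867 at 8 weeks), the early growth response factor Egr2 (15.7 and 503), Krtap17-1 (3.01 and 190), Rspo4 (0.32 and 37.4), Tnfaip3 (1.03 and 66.0), the connexins Gjb6 (0.079 and 25.2) and Gjc3 (1.03 and 52.7), and Serpina1a, which had no UMI at P10 and 25.9 CPM at 8 weeks. Of 24 immediate early genes 0 were higher and 21 lower (median -2.40), where 16.7% of all genes were lower. Among these immediate early genes, Junb had 593 CPM at P10 and 5435 at 8 weeks, and Zfp36 108 and 2287. Their part in the other differences between the libraries was not tested.

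**Figure D5:**
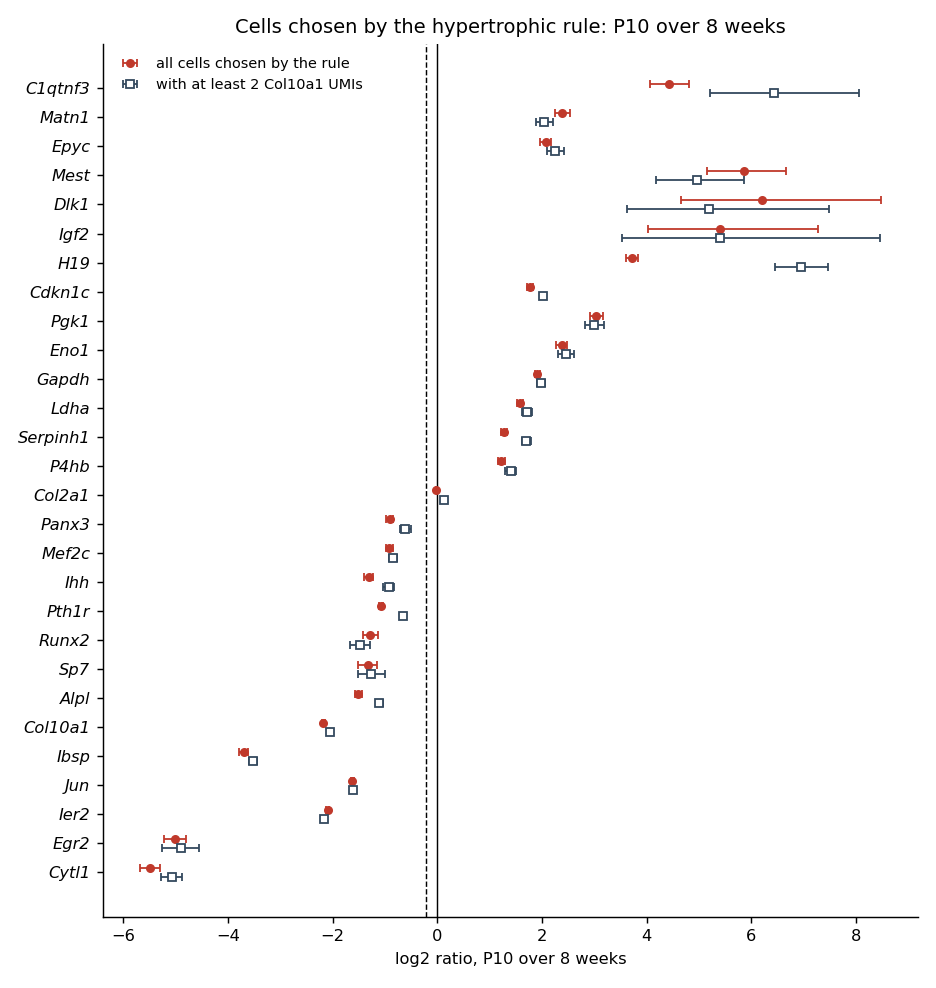
Log2 ratios of 28 genes in P10 cells over 8-week cells chosen by the hypertrophic rule (x axis), with 95% counting intervals. Circles are all chosen cells (362 and 159), squares those with at least 2 Col10a1 UMIs (154 and 86); the dashed line is the median gene at -0.21. C1qtnf3, Mest and H19 lie far to the right and Cytl1 and Egr2 far to the left.

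The lineage reporter was scarce in these cells. The deposited exogenous counts hold the tdTomato sequence (TDT) and WPRE4, an element named like the 3′ element of many reporter transcripts; the labels do not say that the allele carries it. TDT had 2 UMIs over the 362 hypertrophic cells. WPRE4 had 205 UMIs, or 16.2 per 1000000 gene UMIs (14.1 to 18.6), with at least 1 UMI in 142 cells (39.2%), at most 7 in a cell and none with 10. Ucma chondrocytes had 25.6 and Omd Lox Frzb chondrocytes 34.9, and all P10 cells outside the hypertrophic group 190. Of the latter, 295 cells had at least 10 UMIs. At least 1 UMI was found in 24.6%, 27.1% and 34.9% of the cells of these groups, shares below that of the deeper hypertrophic cells. In Ucma chondrocytes 1 cell held 11.9% of the WPRE4 UMIs. Neutrophil-marked cells, which should lack the reporter, had 51.8 per 1000000 (36.9 to 70.9), with at least 1 UMI in 28.2% of cells and at most 3 in a cell. Their median depth of 3742.5 UMIs, against 34423.5 in hypertrophic cells, bears on both measures: per total UMIs the hypertrophic cells were lower, and by share of cells they were higher. The part of mixed droplets among the neutrophil-marked cells was not tested, so they gave no clean measure of free RNA. Reporter expression in hypertrophic cells therefore could not be told from free RNA with these values. At 8 weeks the cells of the same rule had 62.8 (55.7 to 70.7), and 1 of them had at least 10 UMIs. Over all kept cells the level was 174 at P10 and 1093 at 8 weeks. Tagln itself had 8.47 CPM in hypertrophic cells, 18.0 in Ucma and 19.4 in Omd Lox Frzb chondrocytes, and Acta2, the smooth muscle actin, 11.6, 57.1 and 107.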

How the data were processed

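Whole discs were digested for 1 hour and profiled by droplet-based single-cell RNA sequencing. Per the submitters' processing notes, Cell Ranger 3.1.0 was used with mm10 (GRCm38); Seurat 3 is named there without a role. For each age the authors deposited raw UMI counts of genes in 1 matrix and of 96 exogenous sequences in another; all values are whole numbers. Names of cells and features are the other content they deposited. The 4 samples listed for an age cannot be told apart within a matrix.

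Cells under 500 genes or 1000 UMIs, or with over 15% of UMIs from mitochondrial genes, were left out. Scrublet (in Scanpy 1.11.5, expected rate 6%) called 0 cells at P10, where it has not worked, and 139 at 8 weeks; no doublets were removed, and leaving out scores over 0.25 is an alternative. UMIs were summed per group, divided by the total and given as CPM with exact Poisson intervals; ratios have exact conditional binomial intervals. A fold against 0 UMIs uses 3 counts over the group. A gene entered a contrast if its 2 sums held 100 UMIs together, and was called at a 2-fold difference. The procedure was also run on simulated data. No outcome of that run is given, so nothing is read from it. For thinned values each cell was drawn down to 5000 UMIs.

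Members and lists were chosen with earlier results of these data known. Named genes are the 12 highest and 10 lowest over Ucma chondrocytes and the 6 and 6 over Omd Lox Frzb chondrocytes. The 10 highest and 10 lowest over 8 weeks are named as well. These were ranked by the interval bound nearer to 1. Left out were rule, mitochondrial, ribosomal, hemoglobin, Y-linked and predicted genes, Xist and Tsix, while other X-linked genes were kept. The 6 most abundant members of each list and a set of regulators are also named. Further list members and the genes of the closing part were chosen after their values were seen. Alternatives were more stringent membership, other scalings, thinning, other minimums, and leaving out cells with markers of other types.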

Additional observations from a re-analysis of the deposited data

How the results depend on the processing

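No paired analysis was possible because the 4 samples listed for an age cannot be told apart in its 1 matrix. For the same reason no sample could be left out. Chosen cells were 362 in the main rule, 196 with at least 4 of the 5 genes and 132 after thinning. Over Ucma chondrocytes the main counts of 811 higher and 1013 lower genes became 479 and 557 after thinning and 394 and 622 without cells carrying 10 UMIs of another type's markers, where fewer genes passed the minimum, and 4102 and 2453 without a minimum. Over Omd Lox Frzb chondrocytes (1214 and 890) they were 627 and 433, 397 and 408, and 5054 and 1928, with 644 higher when scaled to the median gene. Over 8 weeks (622 and 1379) they were 344 and 379, 292 and 251, and 1249 and 6250, with 949 higher when scaled to the median gene, 866 lower at a minimum of 200, 891 lower with 4 of the 5 genes and 913 lower among cells with Col10a1. High over low Col10a1 (328 and 155) gave 207 and 93 when cells were split in 2 classes and 70 and 36 for 3 thinned classes. The planned limit on markers of another type left 37 of the 362 members, 603 Ucma, 313 Omd Lox Frzb and 18 8-week cells, since most chondrocytes hold such markers.

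Of the named genes past 2-fold, 0 turned direction without cells of a doublet score over 0.25, with each cell weighted equally, after thinning or when scaled to the median gene. Values that turned were those of Lcn2 over Ucma chondrocytes (-0.67 with 4 of the 5 genes, -3.13 among cells with Col10a1), Ngp over Ucma chondrocytes (-5.61 and -5.26), S100a9 over Omd Lox Frzb chondrocytes (-3.68, -3.45, and -2.48 without cells carrying another type's markers in the reduced form) and Hp over 8 weeks (0.42 and 0.31). Under the planned limit on other markers, Id3 over Ucma chondrocytes was at 0.12, Col1a1, Egr2 and Ibsp over Omd Lox Frzb chondrocytes at 0.087, 0.099 and 1.58, and Apoe over 8 weeks at 0.82. The cause was not tested. With 1 library an age, depth limits statements on genes under about 3 UMIs a group, and no difference between animals can be measured.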

Other observations

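Beyond the lists, the genes furthest above in the high class by Col10a1 were chosen after their values were seen and are given as values. The kinase Wnk4 had 1.62, 9.94 and 52.8 CPM from the low to the high class, the lipoxygenase Alox12 1.62, 8.45 and 45.4, Cds1, an enzyme of phospholipid synthesis, 4.04, 5.71 and 80.6, the transcription factors Sox4 10.5, 34.8 and 136 and Gata6 1.88, 9.69 and 32.7, and the lysophospholipase Enpp2 (autotaxin) 53.3, 109 and 437. Each was found in 79 to 269 of the 362 cells, so no single cell carried these values. Cytl1, at 1.62, 4.22 and 45.2 CPM, was found in 41 cells, of which 5 held 72.5% of its UMIs.

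On the low side, several replication-dependent histone transcripts were higher where Col10a1 was absent. Hist1h2ac had 302, 115 and 33.6 CPM from the low to the high class, Hist2h4 177, 102 and 33.6, and Hist1h4d 156, 97.1 and 30.9, each in 196 to 232 cells. Krt16, a keratin of stressed epithelium, had 497, 272 and 108 CPM in 141 cells, and the stress-inducible Gadd45g 699, 773 and 163 in 314 cells. Npy had 102, 10.2 and 1.43 CPM, but it was found in 20 cells, of which 1 held 32.2% of its UMIs.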
